A study of Homo sapiens with 6 samples.

Results

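SMCR8, C9orf72, WDR41, FLCN, FNIP1 and FNIP2 encode the subunits of the C9orf72-SMCR8-WDR41 complex and of the folliculin (FLCN-FNIP) complex, and their RNA was followed in HEK293 cells in which a zinc finger gene had been disrupted. The 6 genes were taken by name from a table of 57773 genes, of which 22010 were tested, and all 6 members were among the genes tested. The set was selected on the counts of SMCR8 in cells with disrupted ZNF507, where SMCR8 had passed the threshold, so its own values in that contrast are a description and carry no test. The other 5 members were chosen because their proteins belong to these complexes.

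HEK293 is a human embryonic kidney cell line. Cells were transiently transfected with PX459, a plasmid that carries Cas9, a guide RNA and puromycin resistance, in 3 groups of 2 libraries that the labels describe as biological duplicates. The sgZNF146 group received 4 guides against ZNF146, the sgZNF507 group received 4 guides against ZNF507, and the EV group received the plasmid without a guide. All groups went through 36 h of puromycin and RNA was taken 14 days after transfection, so each library represents a transfected population and not a clone, and the share of edited cells was not analysed here. ZNF146 and ZNF507 are C2H2 zinc finger proteins that bind LINE-1 sequence. The study compared each disruption with EV to learn how loss of either protein changed the transcriptome.

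C9orf72 and SMCR8 both carry DENN domains and dimerize, and WDR41 holds the dimer on the lysosome through the transporter SLC66A1 (PQLC2) when cationic amino acids are scarce. The complex is known for its links to autophagy and lysosome function, and a repeat expansion in C9orf72 is a major genetic cause of amyotrophic lateral sclerosis and frontotemporal dementia. FLCN and its partners FNIP1 and FNIP2 are also DENN proteins. They act on RagC and RagD as a GTPase-activating complex at the lysosome, and through this step mTORC1 reaches TFEB and TFE3, the transcription factors of lysosomal genes. FLCN is the gene mutated in Birt-Hogg-Dubé syndrome.

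Libraries held 22724439 to 28524025 counts, and the 10 genes with most counts took 8.95% to 12.5% of a library. ZNF507 was at 73.7 ± 2.48 CPM in EV and 48.0 ± 1.06 CPM in sgZNF507 (SD, n = 2, log2 fold change −0.62, SE 0.07), so its RNA was lower where it had been targeted. ZNF146 was at 110.2 ± 6.68 CPM in EV and 100.9 ± 2.47 CPM in sgZNF146 (SD, n = 2), a log2 fold change of −0.13 (SE 0.08) that missed the threshold (edgeR, adjusted p = 1.00). CPM, the unit used throughout, is the count scaled to the TMM-normalized library size. In sgZNF507, where ZNF146 was not targeted, it was at 94.9 ± 9.22 CPM (log2 fold change against EV −0.21, SE 0.08). Guides cut DNA and need not lower the RNA, so ZNF146 RNA does not check that label. Of the markers of HEK293 cells, KRT8, KRT18 and NEFM had 1497 to 2679 counts in every library and PAX2 139 to 191. The leukocyte gene PTPRC and the hepatocyte gene ALB had at most 6 counts, whereas the mesenchymal genes COL1A1 and PDGFRB had 1495 to 1933 and 11 to 24 counts.

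SMCR8, the DENN subunit that stabilizes C9orf72, was chosen on its counts in sgZNF507, so its values there are a description. SMCR8 was at 94.1 and 92.7 CPM in the EV libraries, 94.0 and 91.9 CPM in the sgZNF146 libraries, and 130 and 125 CPM in the sgZNF507 libraries. Both sgZNF507 libraries lay above the other 4, which lay within a few CPM of each other. The means were 127.7 ± 3.42 CPM for sgZNF507 and 93.4 ± 0.945 CPM for EV (SD, n = 2), a 1.37-fold difference (log2 fold change 0.45, SE 0.06, approximate 95% interval 0.32 to 0.59). Against sgZNF146, at 92.9 ± 1.5 CPM, the log2 fold change was 0.46 (SE 0.06). In these bulk samples more cells with SMCR8 RNA and more SMCR8 RNA per cell cannot be told apart.

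C9orf72, the subunit that pairs with SMCR8, had few reads, with 153 to 201 counts per library and a counting error of 7.05% to 8.09%. It was at 7.11 and 6.29 CPM in EV, 6.03 and 7.35 CPM in sgZNF146, and 7.38 and 6.94 CPM in sgZNF507. The 3 groups overlapped. The log2 fold change in sgZNF507 was 0.09 (SE 0.15, −0.23 to 0.42, edgeR adjusted p = 1.00), an interval that includes no change.

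WDR41, the β-propeller subunit that anchors the complex, was read more precisely. It was at 55.0 and 54.1 CPM in EV, 55.4 and 53.5 CPM in sgZNF146, and 55.8 and 56.5 CPM in sgZNF507. Both sgZNF507 libraries lay above the rest by a narrow margin, and the log2 fold change against EV was 0.04 (SE 0.07, −0.11 to 0.20).

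FLCN, the catalytic subunit of the folliculin complex, was at 61.3 and 60.3 CPM in EV, 59.2 and 58.1 CPM in sgZNF146, and 62.4 and 57.5 CPM in sgZNF507. The sgZNF507 libraries fell on either side of EV, whereas both sgZNF146 libraries lay just below EV. The log2 fold change was −0.02 (SE 0.07, −0.18 to 0.14) in sgZNF507 and −0.05 (SE 0.07, −0.21 to 0.10) in sgZNF146.

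FNIP1 and FNIP2 are paralogs that bind FLCN, AMPK and HSP90. FNIP1 was at 35.6 and 32.6 CPM in EV, 36.4 and 33.5 CPM in sgZNF146, and 33.1 and 34.1 CPM in sgZNF507. FNIP2 was at 98.9 and 93.5 CPM in EV, 95.5 and 96.9 CPM in sgZNF146, and 94.5 and 96.3 CPM in sgZNF507. The groups overlapped for both genes. In sgZNF507 the log2 fold change was −0.02 (SE 0.09, −0.21 to 0.17) for FNIP1 and −0.01 (SE 0.06, −0.15 to 0.13) for FNIP2. FNIP2 had 2.62 to 2.89 counts for each FNIP1 count in the 6 libraries, so the balance of the paralogs was similar in all of them.

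**Figure D1:**
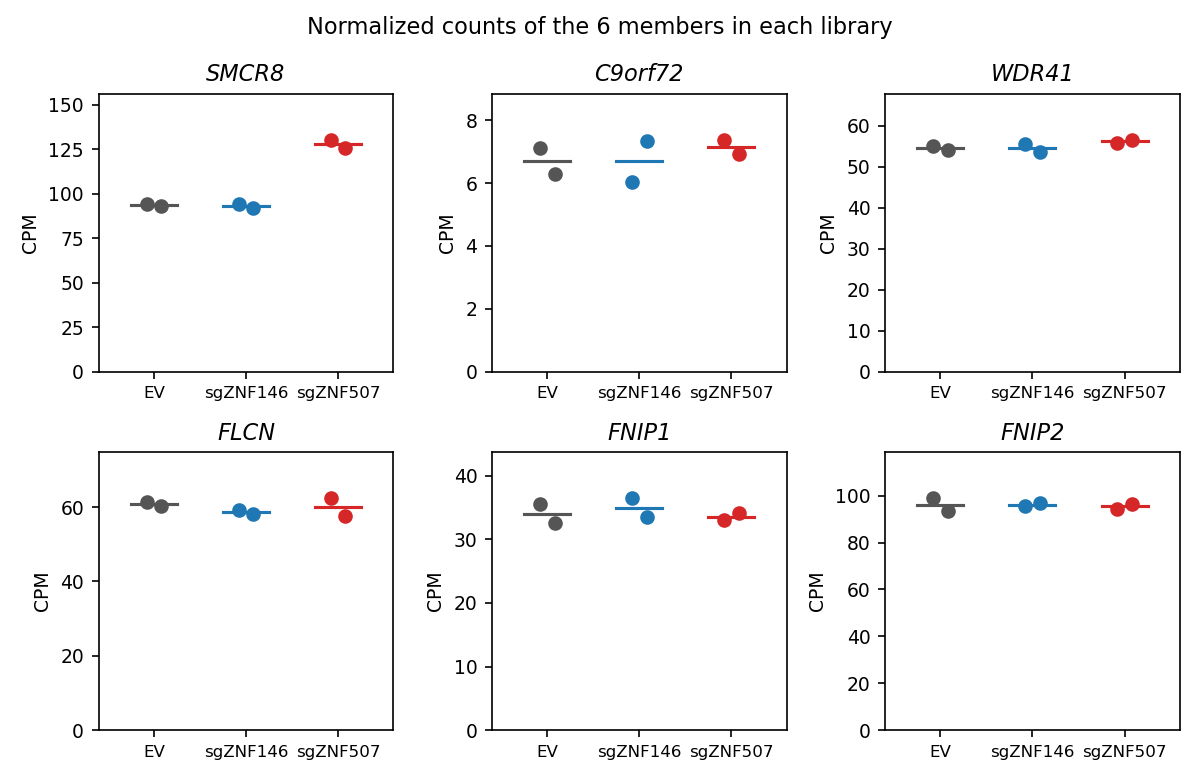
Normalized counts (CPM, linear axes from 0) of the 6 members in the 2 libraries of EV, sgZNF146 and sgZNF507, with points for libraries and bars for means. SMCR8 stood at 130 and 125 CPM in sgZNF507 against 91.9 to 94.1 CPM elsewhere, whereas the means of FNIP2 were 96.2, 96.2 and 95.4 CPM in the 3 groups.

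In sgZNF507 against EV, 1 of 6 members passed the threshold (edgeR quasi-likelihood test, adjusted p under 0.05), namely SMCR8, beside 0.182% of all genes tested. SMCR8 was chosen with this contrast known, so nothing is read from that count. Groups did not overlap for 2 of 6 members, SMCR8 and WDR41, both higher, and for 29.3% of all genes. None of the 5 partners passed (edgeR, smallest adjusted p = 1.00), and 0 of 5 had an unadjusted p under 0.05, beside 747 of 22010 genes in all. Their log2 fold changes ran from −0.02 to 0.09 with a median of −0.01, and the median of all genes tested was −0.003. For WDR41, FLCN, FNIP1 and FNIP2 the interval of the log2 fold change ended at 0.20 or below. These intervals are approximate and each covers 1 gene. An exact permutation of 2 libraries against 2 cannot go below p = 0.333, so no member could pass that test. Without EV replicate 1, EV replicate 2 or sgZNF507 replicate 1, SMCR8 no longer passed, and its log2 fold change was then 0.47, 0.44 and 0.42.

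In sgZNF146 against EV, which shares the EV libraries with the contrast above, 0 of 6 members passed. No gene in the table passed (0% of those tested by edgeR, also 0 with DESeq2, 0 to 33 over all settings tried, and 535 of 22010 at an unadjusted p under 0.05). SMCR8 had a log2 fold change of −0.01 (SE 0.06, −0.14 to 0.13, edgeR adjusted p = 1.00). The 5 partners ran from −0.05 to 0.04, with a median of −0.001, the same as that of all genes. C9orf72 was the least certain (−0.33 to 0.33). Groups did not overlap for 1 of 6 members, FLCN, and for 28.6% of all genes.

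In sgZNF507 against sgZNF146, which shares its libraries with both other contrasts, 1 of 6 members passed, namely SMCR8, beside 0.173% of all genes. The sgZNF507 libraries are those on which SMCR8 was chosen, so nothing is read from that count either. Groups did not overlap for 2 members, SMCR8 and WDR41, and for 32.1% of all genes. The partners ran from −0.06 to 0.10 in log2 fold change and 0 of 5 passed (edgeR, smallest adjusted p = 1.00). Without sgZNF146 replicate 1, sgZNF146 replicate 2 or sgZNF507 replicate 1, SMCR8 did not pass and stood at 0.48, 0.44 and 0.43.

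**Figure D2:**
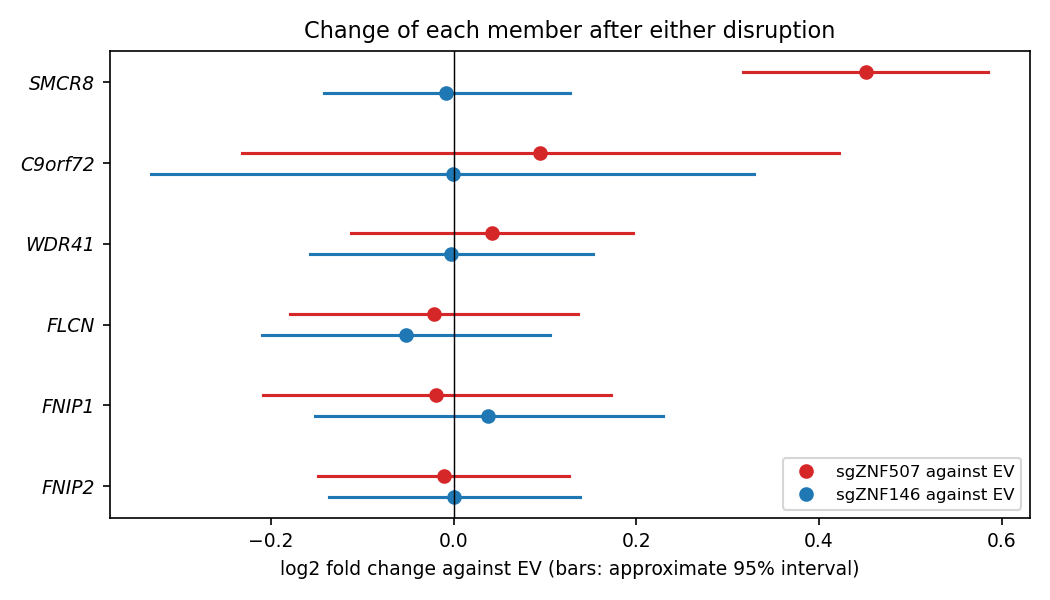
The log2 fold change of each member against EV in sgZNF507 (red) and sgZNF146 (blue), with approximate 95% intervals from the edgeR fit of 6 libraries. SMCR8 in sgZNF507 stood at 0.45 (0.32 to 0.59), but it was chosen on this contrast, so its interval there is no test. The intervals of the 5 partners all included 0, and C9orf72 had the widest.

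SMCR8 was also higher relative to each partner. SMCR8 had 1.70 to 1.72 counts for each WDR41 count in the EV and sgZNF146 libraries and 2.33 and 2.22 in sgZNF507. For each FLCN count it had 1.53 to 1.59 counts in EV and sgZNF146 and 2.09 and 2.18 in sgZNF507. For each C9orf72 count the values were 13.2, 14.7, 15.6 and 12.5 in EV and sgZNF146 and 17.6 and 18.1 in sgZNF507. For each FNIP1 count SMCR8 had 2.58 to 2.85 counts in EV and sgZNF146 and 3.93 and 3.68 in sgZNF507, and for each FNIP2 count 0.948 to 0.992 and then 1.38 and 1.30. In all 5 ratios both sgZNF507 libraries lay above the other 4. These ratios hold the SMCR8 values that chose the gene, and counts are not corrected for gene length.

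Levels between genes were compared per kb of exon in EV. SMCR8 was highest at 11.3 ± 0.114 CPM per kb, followed by FNIP2 at 8.76 ± 0.345, WDR41 at 7.64 ± 0.0833, FLCN at 6.21 ± 0.0698, FNIP1 at 4.31 ± 0.268 and C9orf72 at 0.955 ± 0.0823 CPM per kb (SD, n = 2). Each neighbouring pair in this order lay further apart than its SDs. The order depends on the length used. For FLCN the union of exons is 9786 bp and the longest annotated transcript 3667 bp, and for WDR41 they are 7141 and 3678 bp. Over the longest transcript FLCN led at 16.6 CPM per kb, before WDR41 at 14.8, FNIP2 at 13.7 and SMCR8 at 11.3. FNIP1 at 5.18 and C9orf72 at 1.39 CPM per kb stayed the lowest. In sgZNF507 SMCR8 was at 15.4 ± 0.412 CPM per kb.

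In GRCh37, SMCR8 (ENSG00000176994) lies on the plus strand at chr17:18218607-18231370 with 2 exons and 937 codons. FLCN (ENSG00000154803) lies on the same chromosome, on the minus strand at chr17:17115526-17140502, with 14 exons and 579 codons. C9orf72 (ENSG00000147894, minus strand) lies at chr9:27535638-27573864 with 11 exons and 481 codons, and WDR41 (ENSG00000164253, minus strand) at chr5:76721795-76916436 with 13 exons and 459 codons. FNIP1 (ENSG00000217128, minus strand) lies at chr5:130977407-131132710 with 18 exons and 1166 codons, and FNIP2 (ENSG00000052795, plus strand) at chr4:159690178-159829202 with 17 exons and 1114 codons. Exons and codons are those of the canonical transcript.

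A long noncoding RNA gene, RP1-178F10.3 (ENSG00000267350), lies on the same strand wholly within exon 2 of SMCR8. Its single exon spans chr17:18227536-18229211, 1676 bp that start 1154 bp after the end of the SMCR8 coding sequence and so fall in the 3′ UTR. It had 932 and 1024 counts in EV, 933 and 896 in sgZNF146, and 1238 and 1445 in sgZNF507. As with SMCR8, both sgZNF507 libraries stood above the other 4 in normalized counts. The mean was 51.8 ± 2.72 CPM in sgZNF507, 37.2 ± 0.282 CPM in EV and 36.2 ± 0.814 CPM in sgZNF146 (SD, n = 2), with a log2 fold change of 0.48 (SE 0.08) in sgZNF507 against EV, given without a test because it shares its position and its choice with SMCR8.

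The lncRNA had 0.388 to 0.413 counts for each SMCR8 count in all 6 libraries, and its ratio in sgZNF507 (0.413 and 0.398) was close to that in EV (0.398 and 0.399). Reads from this stretch of the SMCR8 exon and reads from a separate lncRNA cannot be told apart by strand. The counting options for such overlaps are not given in the sources used here. The exons are those of the GENCODE annotation used here, and the Ensembl models with which reads were counted may differ. Of 85 genes that lie wholly within exons of a same-strand gene with at least 6000 counts over the libraries, 39 had no count and 39 had at least 60, so the table does not show how shared reads were assigned. If the SMCR8 counts came only from the 6621 bp outside the lncRNA, SMCR8 stood at 13.9 to 14.2 CPM per kb in EV and sgZNF146 and at 19.7 and 18.9 CPM per kb in sgZNF507. The lncRNA stood at 21.2 to 22.3 CPM per kb and at 32.1 and 29.8 CPM per kb in the same libraries. With the counts of both genes added, the log2 fold change in sgZNF507 against EV was 0.46.

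**Figure D3:**
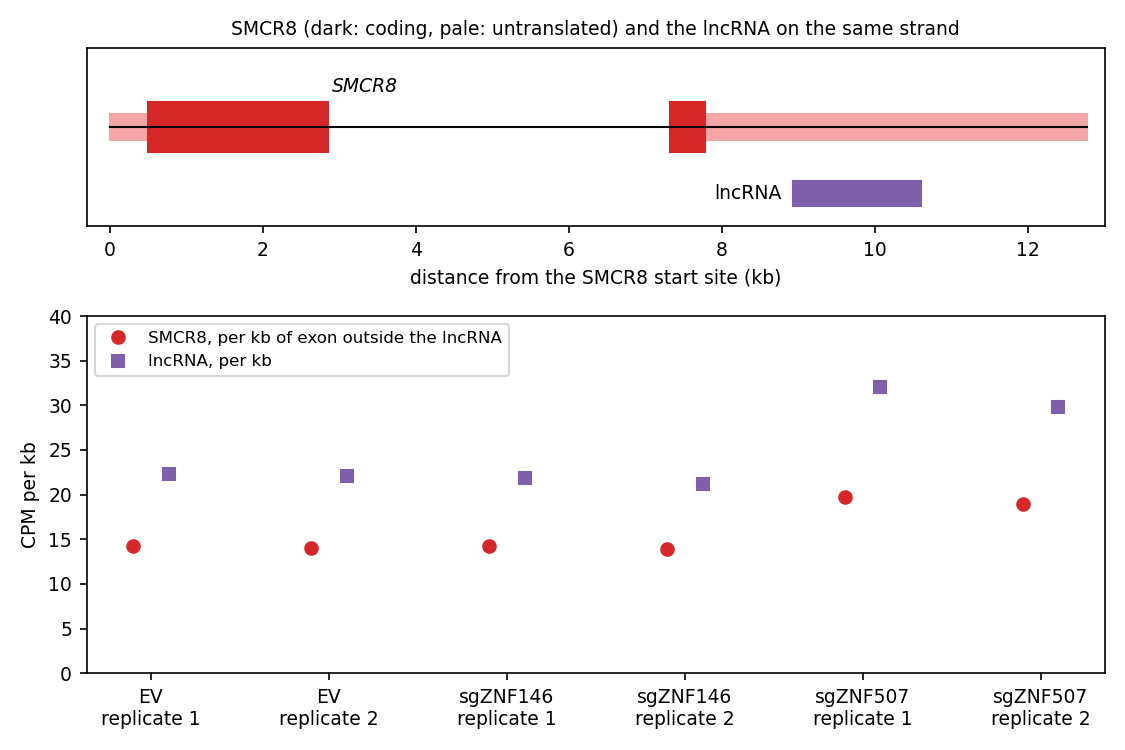
Top, the exons of SMCR8 (coding dark, untranslated pale) and the lncRNA to scale, by distance from the SMCR8 start site in kb. Bottom, CPM per kb in each library for the lncRNA and for SMCR8 outside the lncRNA, which were higher together in the sgZNF507 libraries (29.8 and 32.1, and 18.9 and 19.7, CPM per kb).

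Other annotated genes also overlap exons of the members. SHMT1, the cytosolic serine hydroxymethyltransferase, shares 197 bp of exon with SMCR8 on the opposite strand and had a log2 fold change of 0.01 (SE 0.06). PDE8B shares 383 bp with WDR41 on the opposite strand and had 31 to 52 counts. On the same strand, ENSG00000264187 shares 1161 bp with FLCN and had 6 to 21 counts, and ENSG00000273217 shares 281 bp with FNIP1 and had none.

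The genes around each member were examined within 500 kb. SMCR8 had 16 tested protein-coding neighbors, of which 0 passed in sgZNF507 against EV (edgeR, beside 0.182% of all genes), with a median log2 fold change of 0.03 and a range of −0.45 to 0.16. Unadjusted p (edgeR) was under 0.05 for 2 of the 16, beside 747 of 22010 genes in all. They were TOP3A and DRC3, the latter named after its values were seen (log2 fold change −0.45, SE 0.18). TOP3A, a DNA topoisomerase, starts on the minus strand 286 bp from SMCR8. It was at 149.2 and 148.7 CPM in EV, 138.5 and 128.9 CPM in sgZNF507, and 151.3 ± 1.96 CPM in sgZNF146 (SD, n = 2), so the sgZNF507 libraries were the lowest here where they were the highest for SMCR8. Its log2 fold change was −0.16 (SE 0.06, edgeR adjusted p = 1.00). SHMT1, the neighbor on the other side, is given above.

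The 5 partners had 3 to 10 tested neighbors each, and 0 of these passed in sgZNF507 against EV, beside 0.182% of all genes. Next to C9orf72, MOB3B had a log2 fold change of 0.07 (SE 0.12). LINGO2, the nearest on the other side at 363751 bp, had 0.45 (SE 0.33) with only 1.25 CPM in EV and 1.75 CPM in sgZNF507. Beside WDR41 stood PDE8B at −0.05 (SE 0.32) and the homeobox gene OTP at −0.45 (SE 0.38), both with few reads. TBCA, a tubulin cofactor near WDR41 at −0.23 (SE 0.08), was named after its values were seen. It was the 1 of 6 WDR41 neighbors with an unadjusted p (edgeR) under 0.05, beside 747 of 22010 genes in all. Next to FLCN, ENSG00000264187 was at −0.66 (SE 0.44) and the COP9 signalosome subunit COPS3 at −0.01 (SE 0.07). FNIP1 was flanked by RAPGEF6 at −0.13 (SE 0.10) and MEIKIN at 0.16 (SE 0.52), the latter with 0.34 CPM in EV. On either side of FNIP2 stood PPID at −0.02 (SE 0.07) and RAPGEF2, 194963 bp away, at −0.05 (SE 0.06).

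**Figure D4:**
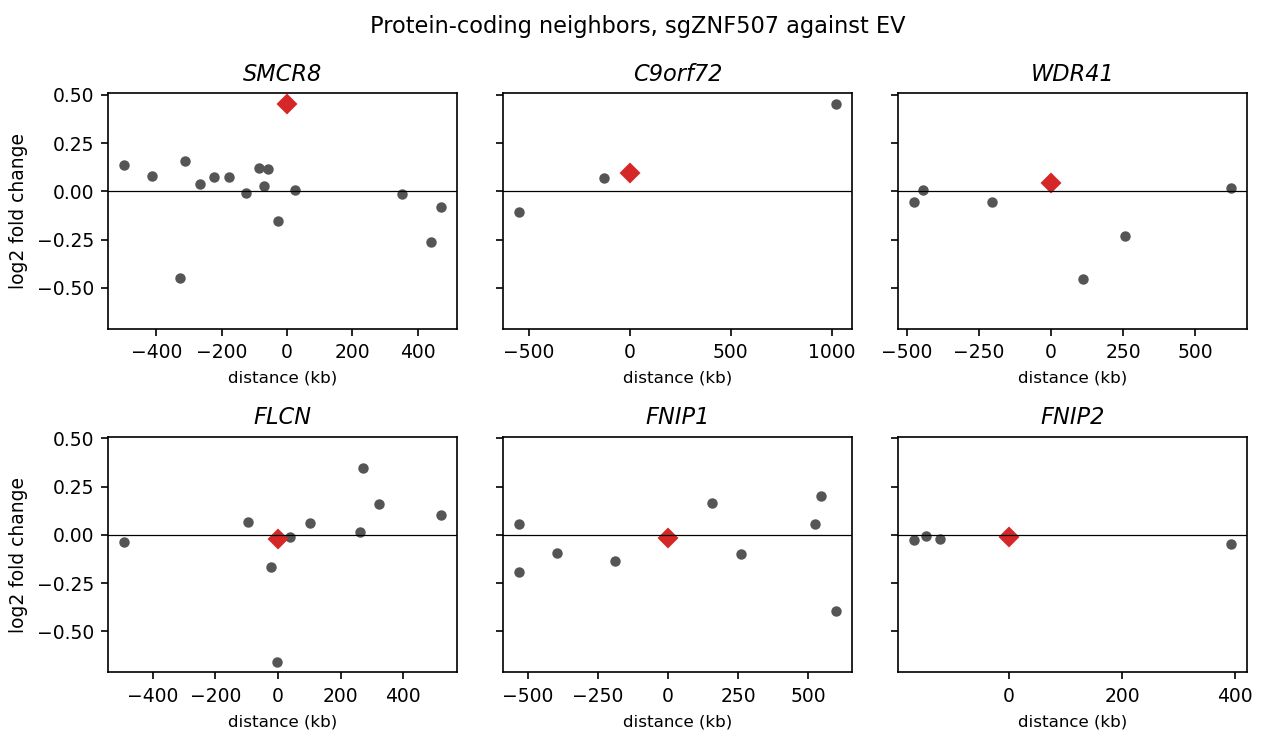
The log2 fold change in sgZNF507 against EV of tested protein-coding genes within 500 kb of each member (gray), by distance between gene midpoints in kb, with the member in red at 0. SMCR8, which was chosen on this contrast, stood at 0.45 above its 16 neighbors, which ran from −0.45 to 0.16. The partners stood within the range of theirs except WDR41 at 0.04, whose 6 neighbors ended at 0.02.

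The 8 guide sequences were searched along the members and 2000 bp to either side on both strands, with up to 3 mismatches and no PAM requirement. No site had 0 to 2 mismatches, and 3 sites had 3 mismatches. One lies in C9orf72 (chr9:27541078-27541095, a ZNF507 guide) and the others in FNIP1 (chr5:131008631-131008649, a ZNF146 guide, and chr5:131092991-131093008, a ZNF507 guide). None was found at SMCR8, WDR41, FLCN or FNIP2.

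TFEB and TFE3, which FLCN-FNIP holds in check, bind E-box sequences of the CLEAR type, so the letters CACGTG, TCACGTGA (which contains CACGTG) and the related TCATGTGA were searched on both strands in RefSeq promoter windows from 250 bases before to 50 after a start site (GRCh38.p14). All 6 members matched, with 8 windows. CACGTG was in 7.26% of 35116 windows, TCACGTGA in 0.98% and TCATGTGA in 1.00%. The SMCR8 window held TCATGTGA once, starting at −2 from the start site. FNIP1 held CACGTG 2 times, starting at −175 and −94. One of 2 FNIP2 windows held TCATGTGA on the opposite strand, at −143. C9orf72, WDR41, FLCN and the other FNIP2 window held none of these letters. The central bases of the SMCR8 and FNIP1 windows are shown because SMCR8 differed in sgZNF507 and FNIP1 did not, with the motif in capitals, for SMCR8 at chr17:18315143-18315317 (plus strand) and for FNIP1 at chr5:131796993-131797167 (minus strand).
SMCR8: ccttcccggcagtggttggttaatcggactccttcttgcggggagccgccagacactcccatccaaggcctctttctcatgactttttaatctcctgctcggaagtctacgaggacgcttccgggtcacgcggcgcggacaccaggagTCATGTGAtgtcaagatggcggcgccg
FNIP1: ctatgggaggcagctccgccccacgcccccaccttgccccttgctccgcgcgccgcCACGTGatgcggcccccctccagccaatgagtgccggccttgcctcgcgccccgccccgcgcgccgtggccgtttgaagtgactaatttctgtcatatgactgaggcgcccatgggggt
A match to these letters is a description of the sequence and was not tested for binding.

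Genes that act with these complexes were followed in a list of 88, of which 85 were tested. In sgZNF507 against EV 0 of 85 rose and 0 fell past the threshold (edgeR, 0 also with DESeq2), beside 0.182% of all genes, and 5 had an unadjusted p under 0.05, as had 747 of 22010 genes in all. Their median log2 fold change was 0.02 against −0.003 for all genes. In sgZNF146 against EV 0 of 85 passed, as did 0 of 22010 genes in all, so nothing is read from that count. The median was −0.001, and 1 gene had an unadjusted p (edgeR) under 0.05, beside 535 of 22010 genes in all. That gene was the AMPK subunit PRKAG2 (−0.33, SE 0.11, named after its values were seen).

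On the side of C9orf72-SMCR8, its lysosomal receptor SLC66A1 was at 40.8 ± 0.127 CPM in sgZNF507 against 37.8 ± 4.26 CPM for EV (log2 fold change 0.11, SE 0.09). None of 7 small GTPases reported to act with the complex passed. RAB39B had the largest difference among them (0.23, SE 0.17), and ARF5, named after its values were seen, was at 0.17 (SE 0.07). The 5 genes of the ULK1 complex, which starts autophagy, ran from −0.03 to 0.10 with ULK2 at the top (SE 0.08).

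The Rag GTPases, on which FLCN-FNIP acts, had the lowest median of the 16 lists at −0.20. Some list must be the lowest, and this median covers 4 genes, of which 0 passed, beside 0.182% of all genes. RRAGB was at 5.51 ± 0.861 CPM in sgZNF507 against 7.37 ± 0.827 CPM for EV (log2 fold change −0.43, SE 0.16, edgeR adjusted p = 1.00). RRAGC, a direct substrate of the complex, was at −0.25 (SE 0.10, adjusted p = 1.00) and RRAGD at −0.16 (SE 0.12), whereas RRAGA was at 0.04 (SE 0.09). In sgZNF146 the 4 genes ran from −0.07 to 0.04. Ragulator, the scaffold that holds the Rags on the lysosome, had a median of 0.07, with LAMTOR3 at 0.20 (SE 0.11).

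Of the upstream regulators listed here, 0 passed. The medians were −0.05 for GATOR1, which turns off RagA and RagB (NPRL2 at −0.15, SE 0.09), −0.01 for GATOR2 (WDR59 at 0.07, SE 0.07) and 0.01 for KICSTOR (KPTN at −0.05, SE 0.10). The 7 amino acid sensors had a median of 0.04, and the arginine sensor CASTOR1, at 1.55 ± 0.0489 CPM against 1.98 ± 0.418 CPM in EV, was the most distant at −0.36 (SE 0.31). For mTORC1 the median was 0.01 (DEPTOR at 0.19, SE 0.18), and for the TSC complex with RHEB it was 0.00 (TBC1D7 at −0.08, SE 0.10).

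TFEB was at 10.35 ± 2.24 CPM in sgZNF507 and 8.004 ± 0.781 CPM for EV, a log2 fold change of 0.36 whose interval reached 0 (SE 0.17, −0.006 to 0.73, edgeR adjusted p = 1.00). Its paralogs TFE3 and MITF were at 0.05 (SE 0.08) and −0.003 (SE 0.13), and TFEC was not tested. Of the partners of FNIP, the AMPK subunits had a median of −0.05 over 6 tested (PRKAA1 at −0.11, SE 0.11). HSP90AA1, the inducible HSP90, was at 1607 ± 118 CPM against 1827 ± 23.9 CPM in EV (−0.18, SE 0.07, adjusted p = 1.00), and HSP90AB1 at 0.04 (SE 0.06). The GABARAP proteins, which bind FLCN-FNIP on damaged lysosomes, had a median of 0.09 (GABARAPL1 at 0.11, SE 0.14).

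Of 21 other proteins with a DENN domain, 20 were tested and 0 passed, with a median of 0.03. DENND1C had the largest log2 fold change of the 20 (0.75, SE 0.31, edgeR adjusted p = 1.00), from 1.39 ± 0.361 CPM in sgZNF507 and 0.820 ± 0.0338 CPM in EV.

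**Figure D5:**
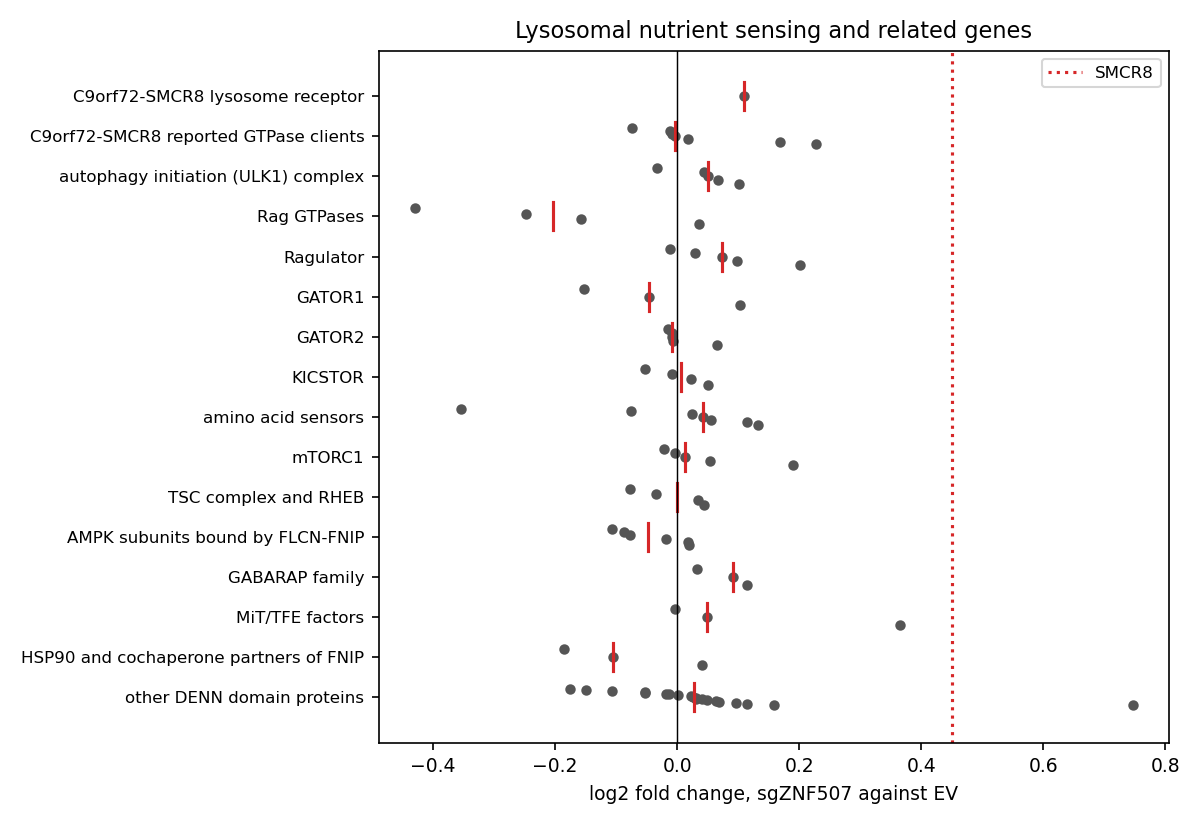
The log2 fold change in sgZNF507 against EV of 85 tested genes in 16 lists (points), with list medians as red bars and SMCR8 (0.45) as a dotted line. All but DENND1C, at 0.75, lay below SMCR8, which was chosen on this contrast. The Rag GTPases had the lowest median at −0.20, over 4 genes of which 0 passed the threshold.

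Among 10083 protein-coding genes with a mean of at least 10 CPM, those whose profile over the 6 libraries was most like that of SMCR8 included GET3, BAX, IGF2R and ATP6V0D1. Likeness was the root mean square difference of log2 CPM, each gene centered on its own mean, and it was 0.03 for GET3, a factor for tail-anchored membrane proteins, 0.04 for the apoptosis effector BAX and 0.05 for IGF2R and ATP6V0D1. IGF2R carries lysosomal enzymes to the lysosome and ATP6V0D1 is a subunit of the vacuolar proton pump. GET3 was at 47.6 and 46.1 CPM in EV, 48.6 and 47.5 CPM in sgZNF146, and 63.8 and 63.4 CPM in sgZNF507. ATP6V0D1 was at 104.3 and 105.8 CPM in EV, 108.2 and 107.8 CPM in sgZNF146, and 140 and 134.9 CPM in sgZNF507. Their log2 fold changes in sgZNF507, 0.39 to 0.44 over these 4 genes, follow from the way they were chosen. The partners were farther from SMCR8, with WDR41 at 0.20 (rank 1755) the nearest and FNIP1 at 0.24 (rank 6073) the farthest of the 4 above 10 CPM.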

How the data were processed

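Paired-end RNA-seq reads of 6 libraries were clipped by the authors with the Fastx Toolkit, cleared of ribosomal reads with Bowtie, mapped to hg19 with TopHat2 as a stranded library and counted per Ensembl gene with featureCounts, whose options and version are not given in the sources used here. The deposited table holds raw counts of reads for every gene and library, made without molecular identifiers, so counting errors cover sampling only.

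Here the counts were filtered with filterByExpr, normalized by TMM and fitted over all 6 libraries with edgeR 4.0.16 (glmQLFit, glmQLFTest) under R 4.3.3. The p-values were adjusted by Benjamini-Hochberg over 22010 genes with a threshold of 0.05. Standard errors and 95% intervals are approximate. Groups come from the sample titles. The gene annotation was GENCODE on GRCh37 (the same build as hg19), which matched 96.1% of identifiers. Exons, lengths and overlaps come from it and may differ from the Ensembl models with which the authors counted reads. Promoters were from RefSeq on GRCh38.p14, matched by symbol. The markers LHX1 and PECAM1 were not analysed here.

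The members, the 88 genes in 16 lists and the tests were chosen with earlier results of these data known. Genes named were the members and the overlapping lncRNA, both targets, the gene of each list with the largest change in sgZNF507 against EV, the nearest tested protein-coding genes and the 5 most like SMCR8, of which 1 is not reported here. Alternatives were DESeq2 1.42.0 and its size factors, upper-quartile normalization, no filter or at least 10 counts, the 4 libraries compared, a replicate block, other lengths, SMCR8 with the lncRNA added, and leaving out each library. The steps were tested on simulated data. Plots used matplotlib 3.10.9 (Python 3.11.15).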

Additional observations from a re-analysis of the deposited data

Results flagged for a closer look

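The lncRNA RP1-178F10.3 lay on opposite sides of EV after the 2 disruptions. Both sgZNF507 libraries were above both EV libraries and both sgZNF146 libraries were below them, although in sgZNF146 against EV the log2 fold change was −0.04 (SE 0.08, −0.21 to 0.13, edgeR adjusted p = 1.00) and groups also did not overlap there for 28.6% of all genes. The log2 fold changes against EV were 0.52 apart, which is the log2 fold change between the disruptions (SE 0.08). It is given as a description without a test, since the lncRNA was chosen with its values in sgZNF507 known. The gene lies wholly within exon 2 of SMCR8 on the same strand.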

How the results depend on the processing

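SMCR8 stayed between 0.42 and 0.49 in sgZNF507 against EV and between 0.43 and 0.50 against sgZNF146 (log2 fold change) over 14 alternatives each. In both contrasts the number of members past the threshold ranged from 0 to 1 when 1 library was left out. The pathway genes past it in sgZNF507 against EV, the contrast for which alternatives were run, stayed at 0. The same replicate number names libraries of different groups without marking a shared source, and deviations correlated weakly across genes between same-numbered libraries (r of 0.138, 0.176 and 0.145 for the pairs of groups). With the replicate block SMCR8 had a log2 fold change of 0.45 (SE 0.05), C9orf72 in sgZNF146 one of 0.0001, and the genes past the threshold numbered 121 in sgZNF507 against EV, 33 in sgZNF146 against EV and 196 between the disruptions. Without a filter on low counts they numbered 101, 19 and 112, and on the 4 libraries compared 3 in sgZNF146 against EV. Leaving out 1 library gave 12 to 44, 0 to 3 and 13 to 37. The causes were not tested.

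Levels per kb in EV with the longest transcript were 1.39 for C9orf72, 14.8 for WDR41, 16.6 for FLCN, 5.18 for FNIP1 and 13.7 for FNIP2. The canonical transcript, added after seeing the data, gave 2.07 for C9orf72 and the same values for the rest. Small differences crossed 0 when 1 library was left out. In sgZNF507 against EV the log2 fold change ranged from −0.082 to 0.0479 for FLCN, from −0.0849 to 0.0494 for FNIP1 (0.0001 without sgZNF507 replicate 1) and from −0.0548 to 0.0328 for FNIP2 (0.0007 without sgZNF507 replicate 1). In sgZNF146 against EV it ranged from −0.0247 to 0.0076 for SMCR8, −0.1521 to 0.1348 for C9orf72, −0.0291 to 0.0217 for WDR41, −0.0296 to 0.1018 for FNIP1 and −0.045 to 0.0399 for FNIP2. C9orf72 in sgZNF146 was also at 0.0005 with DESeq2 size factors, 0.0023 with the upper quartile, 0.0004 with at least 10 counts and 0.0002 on 4 libraries. WDR41 was at 0.0012 with the upper quartile and FNIP2 at −0.0025 without a filter. Depth limits C9orf72 most, at 153 to 201 counts per library. With 2 libraries per group, leaving one out assumes that the lone library varies like the other groups.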
